A study of Rattus norvegicus with 6 samples.

Results

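Integrin and laminin genes were followed in mesenterial fat, the adipose tissue along the vessels of the gut, of newborn wildtype Sprague-Dawley rats, an outbred laboratory strain. Members were all probe sets that the platform annotation gives exactly 1 symbol, where that symbol begins as an integrin alpha, integrin beta or laminin chain name. There were 53 such probe sets for 35 genes, out of 20826 probe sets for 14217 genes named in this way. Of these genes, 22 encode integrin chains, 10 encode laminin chains, and 3 (Itgb1bp1, Itgb1bp2 and Itgb3bp) encode no chain but carry an integrin name and match by spelling.

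The dams had been fed 1000 IU of vitamin D per kg of feed (adequate group, 3 arrays) or 0 IU per kg (deficient group, 3 arrays), and no other treatment is named in the labels. Litter and sex of the pups are not in the labels, nor is it stated that each array is a pup of its own, so a p-value here may reflect technical spread. Values below are log2 signals, the log2 of the deposited MAS5 array signal, and a run of 3 values for a diet is always in the order of arrays 1, 2 and 3. A probe set was tested if its mean over the 6 arrays was at least 6.46, the 40th percentile. Of the 53 member probe sets 40 were tested, covering 31 of the 35 genes. Signals of different probe sets are not comparable as levels, so each gene is compared only with itself between arrays. The summed signal of a marker list is also compared only between arrays, and its brightest genes weigh most in it. With 3 arrays a diet, precision is limited throughout.

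Integrins are receptors of the cell surface, each a pair of 1 alpha and 1 beta chain, that join the matrix outside the cell to the actin skeleton inside and signal in both directions. The alpha chain largely sets the ligand, which may be laminin, collagen, proteins with an RGD (arginine, glycine, aspartate) site such as fibronectin and vitronectin, or, for leukocyte integrins, surface proteins of other cells. Laminins are trimers of an alpha, a beta and a gamma chain. Many of them are cross-shaped and polymerise into the sheet on which basement membranes are built. In adipose tissue such a membrane surrounds every fat cell and every vessel.

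The proximal promoters of 4 members are shown as examples. Lamc1 encodes the gamma chain of all the laminin trimers listed here, and Lamb1 encodes a beta chain that joins it. Itgb5 and Itgae were among the members with no overlap between the diets. Each line gives the 250 bases before the start of the gene, 5′ to 3′ on the gene's strand, from RefSeq on the GRCr8 build, and capitals mark GGGCGG (the GC box bound by Sp1-type factors) and GAGGAA (the core of sites bound by PU.1, an ETS factor of blood cells), read on either strand.
Lamb1 (chr6:53562846-53563095, plus strand): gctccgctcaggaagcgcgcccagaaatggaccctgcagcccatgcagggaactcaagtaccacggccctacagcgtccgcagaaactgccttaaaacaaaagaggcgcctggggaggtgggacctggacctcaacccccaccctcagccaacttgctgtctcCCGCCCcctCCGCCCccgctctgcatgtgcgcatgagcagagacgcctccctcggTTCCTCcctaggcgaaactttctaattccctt
Lamc1 (chr13:68051987-68052236, minus strand): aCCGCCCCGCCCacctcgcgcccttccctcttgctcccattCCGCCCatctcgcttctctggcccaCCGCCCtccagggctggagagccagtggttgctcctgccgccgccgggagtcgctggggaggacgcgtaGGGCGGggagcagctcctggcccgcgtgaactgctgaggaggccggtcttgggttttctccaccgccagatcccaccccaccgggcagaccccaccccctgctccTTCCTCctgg
Itgb5 (chr11:80449374-80449623, minus strand): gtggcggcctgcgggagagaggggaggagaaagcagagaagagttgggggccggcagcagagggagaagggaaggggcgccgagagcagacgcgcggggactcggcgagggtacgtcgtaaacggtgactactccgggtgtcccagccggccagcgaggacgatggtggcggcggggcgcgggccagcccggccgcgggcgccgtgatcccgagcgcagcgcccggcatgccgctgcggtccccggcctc
Itgae (chr10:58203118-58203367, plus strand): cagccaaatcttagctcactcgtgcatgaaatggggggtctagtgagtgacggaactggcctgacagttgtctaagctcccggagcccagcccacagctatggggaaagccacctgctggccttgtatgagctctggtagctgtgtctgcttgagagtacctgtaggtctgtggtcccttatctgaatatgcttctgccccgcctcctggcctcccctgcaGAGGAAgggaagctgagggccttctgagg

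Lamc1 has 5 matches to the GC box and Lamb1 has 2, while the windows of Itgb5 and Itgae have 0. The promoter table held 27 of the 35 member genes. The GC box was found in 12 of the 27 windows, against 32.4% of all 27457 promoter windows of this length, and GAGGAA in 12 of 27, against 23.2%. The half-site AGGTCA, bound by the vitamin D receptor and other nuclear receptors, was found on either strand in 3 of 27 (Itgax, Itgb1bp2 and Lama4), against 13.7% of all. The direct repeat of that half-site with a spacer of 3 bases, the form the vitamin D receptor binds with its partner RXR, was found in 0 of 27 and in 0.0146% of all. TATAAA was found in 2 of 27, against 13.1%. These are matches of letters only.

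Over all tested probe sets, the first principal component (49.5% of the variance) separated deficient arrays 1 and 2, at 43.1 and 46.4, from the rest, at -26.2 to -18.5. Their bacterial hybridisation controls read 7.19 and 10.1 times the adequate mean, against 0.960 on deficient array 3, and their beta-actin 3′ over 5′ signal ratios were 7.56 and 6.80, against 2.35 to 4.81 on the other 4. Of the adipocyte markers, Fabp4, Lpl, Cd36 and Dgat2 were tested, while Adipoq, Lep, Pparg, Plin1 and Cidec had mean signals under the filter. The tested adipocyte markers were lower in 4 of 4 genes, with a median log2 difference of -0.26 and 0 past the adjusted threshold. The summed signal of that list was 3786 and 3665 on deficient arrays 1 and 2, 6030 on deficient array 3 and 4823 to 5148 on the adequate arrays. The part of adipocyte RNA in the member values was not tested.

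The question put to these genes is whether the dams' vitamin D supply left a mark on their expression in the pups' fat. With limma, 0 of the 40 tested member probe sets passed an adjusted p of 0.05, and 0 of all 18625 did (0%); the smallest adjusted p over all probe sets was 0.344. An unadjusted p under 0.05 was found for 5 member probe sets, 4 lower and 1 higher in the deficient group, where 14.2% of all tested probe sets were past that level (8.18% lower and 6.03% higher). The groups did not overlap for 6 lower member probe sets (10.8% of all tested probe sets) and 1 higher (6.55% of all). The member genes at 1 probe set each had a median log2 difference of -0.06, against -0.09 over all 10591 tested named genes. Among them 19 of 31 were lower in the deficient group, against 60.8% of all. Laminin chains were evenly split, 5 higher and 5 lower, with a median of 0.00 (4 higher and 6 lower after quantile normalization). Integrin chains were 6 higher and 12 lower, with a median of -0.16.

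At 1 probe set each, the integrin chains with the lowest p were beta chains. Itgb5, Itgb3 and Itgb4, partners of stromal, platelet and epithelial integrins, read lower on all 3 deficient arrays than on any adequate array. Lamb1 and the brightest probe set of Itgav read higher on deficient arrays 1 and 2 alone. Without deficient array 3, 12 member probe sets passed the adjusted threshold, 8 lower and 4 higher, where 19.4% of all tested probe sets passed. Array weights gave 11, where 18.6% of all passed. Without deficient arrays 1 and 2 the count was 0, with 0 over all probe sets.

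**Figure D1:**
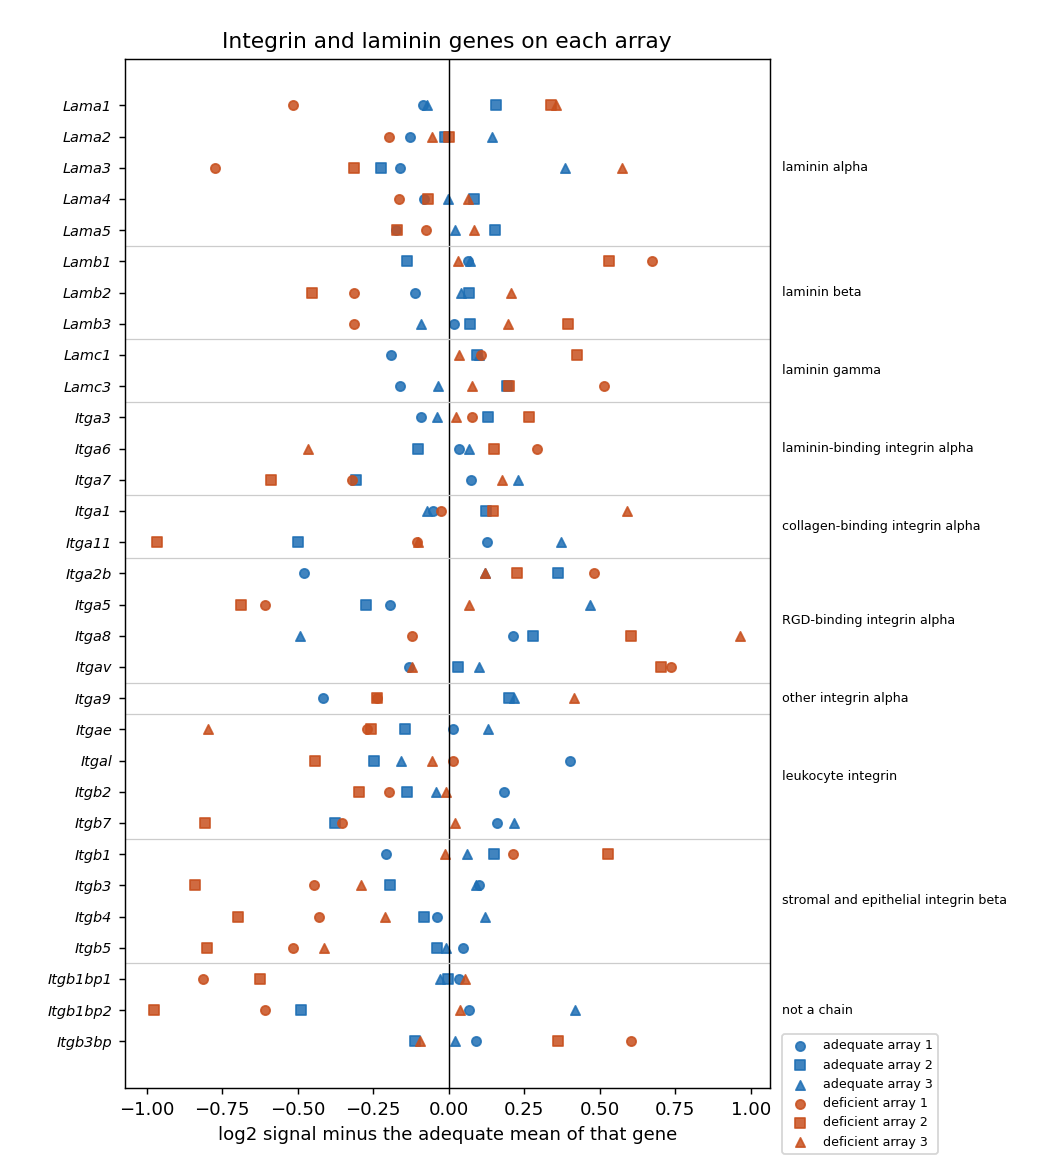
Each row is 1 tested member gene at its brightest tested probe set, and each point is 1 array's log2 signal minus the mean of the 3 adequate arrays (blue for adequate, orange for deficient; circle, square and triangle for arrays 1, 2 and 3). Itgb3, Itgb4, Itgb5 and Itgae have all orange points left of the blue ones, and for Lamb1 and Itgav only the orange circle and square lie to the right.

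Among the laminin alpha chains, which give each trimer its cell binding, no gene differed by more than its standard error. Lama4, the alpha chain of vessel and fat cell basement membranes, read 11.78, 11.95 and 11.86 with the adequate diet and 11.70, 11.80 and 11.93 with the deficient diet. Lama2, the alpha chain best known from muscle and nerve, read 10.47, 10.58 and 10.74 with the adequate diet and 10.40, 10.60 and 10.54 with the deficient diet. Lama5, the broadly expressed alpha chain of mature basement membranes, read 10.84, 11.17 and 11.04 with the adequate diet and 10.94, 10.85 and 11.10 with the deficient diet. In these 3 genes the groups overlapped, and the log2 differences were -0.06 ± 0.15 (SE), -0.08 ± 0.15 (SE) and -0.05 ± 0.16 (SE). A second Lama4 probe set read between 7.51 and 8.40, with a difference of 0.20 ± 0.25 (SE).

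The alpha chains of early embryonic and epithelial membranes were near the filter. Lama1, the alpha chain of early embryos, read 6.55, 6.80 and 6.56 with the adequate diet and 6.12, 6.98 and 6.99 with the deficient diet, so deficient array 1 was below 6.46. Lama3, an alpha chain of skin and other epithelia, read 6.52, 6.45 and 7.06 with the adequate diet and 5.90, 6.36 and 7.25 with the deficient diet, at or above the filter on 3 of the 6 arrays. The differences of 0.06 ± 0.30 (SE) and -0.17 ± 0.36 (SE) were smaller than the SD of the deficient group, 0.50 and 0.68 (n = 3).

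Lamb1, the beta chain of most embryonic laminins, read 12.76, 12.56 and 12.77 with the adequate diet and 13.37, 13.23 and 12.73 with the deficient diet. Deficient arrays 1 and 2 were above every adequate array and deficient array 3 was among them, so the groups overlapped. The log2 difference was 0.41 ± 0.19 (SE) (adjusted p 0.358), a fold of 1.33. It was 0.60 without deficient array 3 (adjusted p 0.00737), 0.03 for deficient array 3 alone and 0.15 after quantile normalization. Lamb2, the beta chain of mature vessel and muscle membranes, went the other way on the same arrays, at 11.52, 11.69 and 11.67 with the adequate diet and 11.31, 11.17 and 11.84 with the deficient diet. Its difference was -0.19 ± 0.19 (SE) (adjusted p 0.629), and -0.38 without deficient array 3 (adjusted p 0.0484). For deficient array 3 alone it had the opposite sign, at 0.21. Lamb3, the beta chain of the epithelial trimer, read 7.27, 7.32 and 7.16 with the adequate diet and 6.94, 7.65 and 7.45 with the deficient diet, with deficient arrays on both sides of the adequate ones.

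Lamc1, the gamma chain of nearly all laminins, read 12.37, 12.65 and 12.66 with the adequate diet and 12.67, 12.98 and 12.59 with the deficient diet. Its difference was 0.19 ± 0.17 (SE) (adjusted p 0.593), and 0.0037 after quantile normalization. Its dimmer probe set read 8.87, 8.82 and 9.20 with the adequate diet and 8.06, 7.99 and 9.06 with the deficient diet, a difference of -0.59 ± 0.28 (SE) (adjusted p 0.361). The probe sets of this gene therefore had opposite signs, and both overlapped between the groups. Lamc3, a gamma chain of nerve and some epithelia, read 6.74, 7.09 and 6.86 with the adequate diet and 7.41, 7.10 and 6.97 with the deficient diet, a difference of 0.26 ± 0.24 (SE), with adequate array 2 among the deficient values.

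Of 7 laminin trimers listed with Lamc1, all had every chain tested and 6 had every chain at or above the filter on all 6 arrays. These were the isoforms 211, 221, 411, 421, 511 and 521, whose digits name the alpha, beta and gamma chains in that order, and the exception was 111, through Lama1. Of 19 integrin pairs, 15 had both chains tested and 13 had both at or above the filter on every array. The 13 were Itgb1 with Itga1, Itga3, Itga5, Itga6, Itga7, Itga8, Itga9, Itga11 or Itgav, Itgav with Itgb3 or Itgb5, Itga6 with Itgb4, and Itgal with Itgb2. Presence of both transcripts in bulk tissue does not show that 1 cell makes the pair.

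The laminin-binding alpha chains did not separate the groups. Itga6, which pairs with Itgb1 or, in hemidesmosomes, with Itgb4, read 11.62, 11.48 and 11.65 with the adequate diet and 11.88, 11.74 and 11.12 with the deficient diet. Deficient array 3 was the lowest and the other deficient arrays the highest, and the difference was -0.01 ± 0.20 (SE). Itga3, a laminin receptor of epithelia and other cells, read 9.03, 9.25 and 9.08 with the adequate diet and 9.20, 9.39 and 9.15 with the deficient diet, a difference of 0.12 ± 0.17 (SE). Itga7, the laminin receptor of skeletal and smooth muscle, read 8.40, 8.02 and 8.55 with the adequate diet and 8.0, 7.74 and 8.50 with the deficient diet, a difference of -0.24 ± 0.25 (SE), with deficient array 3 among the adequate values.

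Collagen-binding chains pointed in different directions. Itga1, the receptor chain for basement membrane collagen on smooth muscle and stromal cells, read 11.11, 11.29 and 11.10 with the adequate diet and 11.14, 11.31 and 11.76 with the deficient diet, and only deficient array 3 lay above the adequate range by more than 0.1. Its difference was 0.24 ± 0.18 (SE) (adjusted p 0.522). Itga11, the fibroblast receptor chain for fibrillar collagen, read 8.13, 7.50 and 8.37 with the adequate diet and 7.90, 7.04 and 7.90 with the deficient diet, with deficient array 2 the lowest. Its difference was -0.39 ± 0.31 (SE) (adjusted p 0.534).

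Among chains that bind RGD sites, Itgav, which pairs with several beta chains and activates latent TGF-beta, read 11.15, 11.31 and 11.38 with the adequate diet and 12.02, 11.99 and 11.16 with the deficient diet. Deficient arrays 1 and 2 were above all others and deficient array 3 was within the adequate range, a difference of 0.44 ± 0.23 (SE) (adjusted p 0.374). It was 0.72 without deficient array 3 (adjusted p 0.00431) and -0.12 for that array alone. Of its dimmer probe sets, 1 read 7.20, 7.37 and 7.10 with the adequate diet and 7.67, 7.84 and 7.04 with the deficient diet, a difference of 0.30 ± 0.26 (SE). The other read 7.36, 7.30 and 7.26 with the adequate diet and 6.80, 6.85 and 7.02 with the deficient diet, lower on every deficient array, a difference of -0.41 ± 0.22 (SE) (adjusted p 0.388).

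Itga8, a chain of smooth muscle and mesenchyme that binds nephronectin, had its dimmer probe set at 6.95, 6.87 and 7.61 with the adequate diet and 7.62, 8.54 and 7.72 with the deficient diet. All deficient values were above all adequate ones, the only tested member probe set of which this held. The nearest values were 7.62 on deficient array 1 and 7.61 on adequate array 3. The difference was 0.82 ± 0.31 (SE) (adjusted p 0.344), a fold of 1.77. The brighter probe set read 8.37, 8.44 and 7.67 with the adequate diet and 8.04, 8.76 and 9.13 with the deficient diet and overlapped, with deficient array 1 below 2 of the adequate arrays, a difference of 0.48 ± 0.31 (SE) (adjusted p 0.445). In both probe sets the sign held on deficient array 3 alone, at 0.58 for the dimmer and 0.97 for the brighter. The difference of the brighter was 0.24 without deficient array 3 and 0.24 without adequate array 3, and 0.79 without deficient array 1. Of 8 tested smooth muscle and pericyte markers 4 were higher and 4 lower, with a median log2 difference of -0.03 and 0 past the adjusted threshold. Their summed signal was 47375 to 57880 on the adequate arrays and 79288, 80243 and 58938 on deficient arrays 1, 2 and 3. These sums did not overlap, but deficient array 3 was close to the highest adequate array, and the brightest genes weigh most in a sum. The part of these cells in the Itga8 values was not tested.

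Itga5, the chain of the classical fibronectin receptor, read 8.56, 8.47 and 9.22 with the adequate diet and 8.14, 8.06 and 8.81 with the deficient diet. Deficient arrays 1 and 2 were the lowest and deficient array 3 lay among the adequate arrays, a difference of -0.41 ± 0.27 (SE) (adjusted p 0.461). Itga9, a chain for tenascin and other ligands that is known from lymphatic vessels, read 9.54, 10.16 and 10.18 with the adequate diet and 9.72, 9.72 and 10.37 with the deficient diet, a difference of -0.02 ± 0.24 (SE). Itga2b, the platelet chain, read 6.42, 7.26 and 7.02 with the adequate diet and 7.38, 7.12 and 7.02 with the deficient diet, a difference of 0.28 ± 0.28 (SE). Of the platelet markers Pf4 was tested, and it read 10.14, 10.22 and 10.15 with the adequate and 9.84, 9.64 and 9.94 with the deficient diet, while Gp5, Gp9 and Ppbp were under the filter in their means.

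Itgb5, the vitronectin receptor beta chain that pairs with Itgav, read 9.62, 9.53 and 9.57 with the adequate diet and 9.06, 8.77 and 9.16 with the deficient diet. Every deficient array was below every adequate array, with group means of 9.57 ± 0.04 (SD, n = 3) for adequate and 9.0 ± 0.20 (SD, n = 3) for deficient. The difference was -0.58 ± 0.17 (SE), a fold of 0.671 (unadjusted p 0.00654, adjusted p 0.344). The dimmer tested probe set read 8.18, 7.89 and 8.13 with the adequate diet and 7.06, 7.11 and 7.77 with the deficient diet and did not overlap either, with a difference of -0.76 ± 0.25 (SE) (adjusted p 0.344). On deficient array 3 alone these were -0.41 and -0.30. Without deficient array 3 they were -0.66 (adjusted p 0.0203) and -0.98 (adjusted p 0.0141). A further Itgb5 probe set was under the filter and overlapped.

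Itgb3, the beta chain of platelets, endothelium and osteoclasts, read 10.49, 10.19 and 10.48 with the adequate diet and 9.94, 9.55 and 10.10 with the deficient diet. Deficient array 2 was the lowest and deficient array 3 the nearest to the adequate group, still below its lowest array. The difference was -0.52 ± 0.18 (SE), a fold of 0.695 (unadjusted p 0.0165, adjusted p 0.344). It was -0.29 for deficient array 3 alone, and -0.64 without it (adjusted p 0.0265). Itgb4, the beta chain of hemidesmosomes, which is also made by Schwann and endothelial cells, read 9.19, 9.15 and 9.35 with the adequate diet and 8.80, 8.53 and 9.02 with the deficient diet. Its groups did not overlap, and the difference was -0.45 ± 0.19 (SE), a fold of 0.734 (unadjusted p 0.0362, adjusted p 0.344). It was -0.21 for deficient array 3 alone, and -0.56 without it (adjusted p 0.0454).

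Of 7 tested endothelial markers 5 were lower and 2 higher in the deficient group, with a median log2 difference of -0.36 and 0 past the adjusted threshold. The summed signal of that list was 13073 to 13739 on the adequate and 11298 to 12147 on the deficient arrays. Of the platelet list only Pf4 was tested, with -0.36 ± 0.15 (SE) (adjusted p 0.344), and the list, with 3 genes under the filter, summed to 1164 to 1211 and 841 to 1084. Of 6 tested epithelial markers 6 were lower (5 after quantile normalization), with 0 past the adjusted threshold. Their summed signal was 7571 on adequate array 3, against 2835 to 3695 on the other arrays. Itgb4 was also highest on adequate array 3, at 9.35, against 9.19 and 9.15 on adequate arrays 1 and 2. The Schwann and nerve markers were mixed, with log2 differences from -0.77 to 0.49 and a median of 0.03. Of the 3 tested, 2 were higher and 1 lower, and 0 passed the adjusted threshold. Their summed signal was 3948 to 4170 on the adequate and 4414 to 5741 on the deficient arrays. The part of these cells in the beta chain values was not tested, and in bulk tissue fewer cells of a type and less RNA per cell cannot be told apart.

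Itgb1, the partner of most alpha chains in stroma, had probe sets of opposite sign. The brighter read 13.04, 13.40 and 13.31 with the adequate diet and 13.46, 13.77 and 13.24 with the deficient diet, a difference of 0.24 ± 0.19 (SE), which was -0.09 after quantile normalization. The dimmer read 12.15, 12.28 and 12.51 with the adequate diet and 11.74, 11.87 and 12.48 with the deficient diet, a difference of -0.28 ± 0.21 (SE). In the brighter, deficient arrays 1 and 2 were the highest, and in the dimmer they were the lowest. Itgb6, the epithelial beta chain, was under the filter on all 6 arrays, at 0.91 to 5.30, where MAS5 signals are too dim to read a difference.

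**Figure D2:**
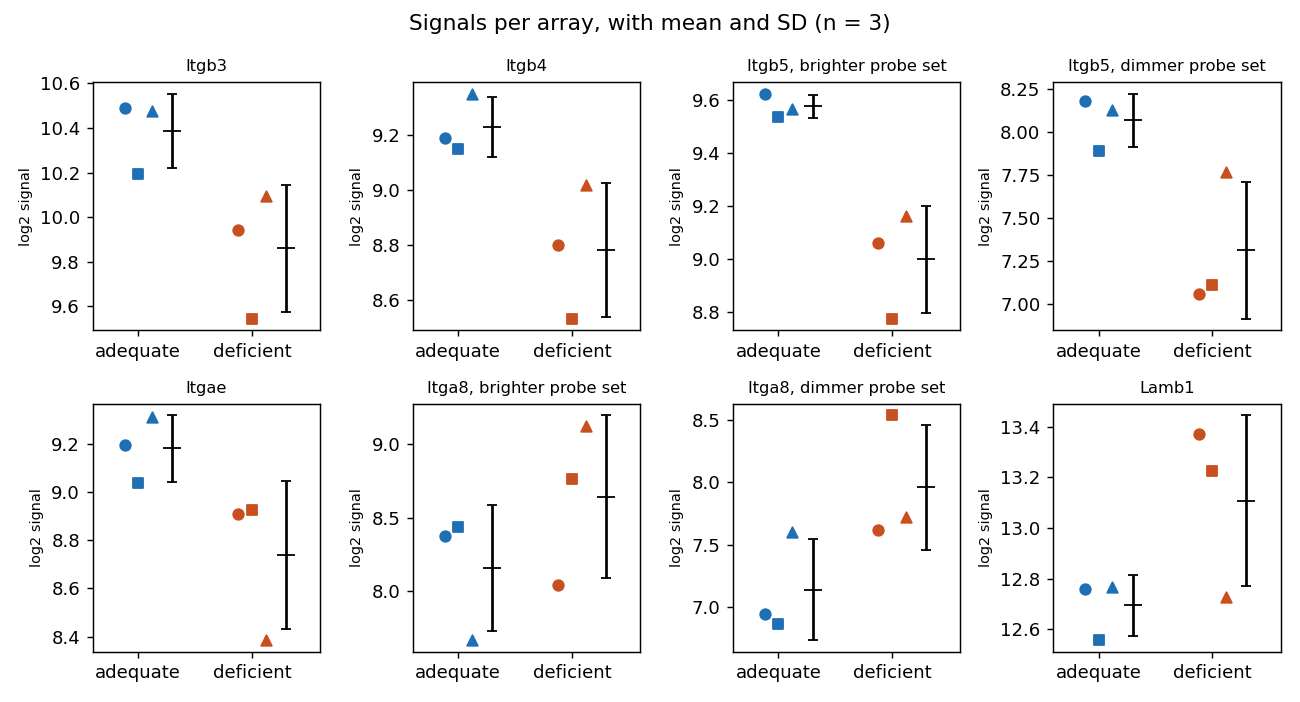
Log2 signal on each array for 6 member genes, Itgb5 and Itga8 with both tested probe sets, beside the group mean with its SD (n = 3; circle, square and triangle for arrays 1, 2 and 3; each panel has its own axis). The groups do not overlap for Itgb3, Itgb4, both Itgb5 probe sets, Itgae and the dimmer Itga8 probe set, and they do for Lamb1 and the brighter Itga8 probe set.

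All 4 tested leukocyte integrin chains were lower in the deficient group, where 60.8% of all tested named genes were lower. Their median difference was -0.27, and none passed. Their median deviation from the adequate mean was -0.23, -0.37 and -0.03 on deficient arrays 1, 2 and 3. Itgae, the chain of intraepithelial T cells and some dendritic cells, read 9.19, 9.04 and 9.31 with the adequate diet and 8.91, 8.93 and 8.38 with the deficient diet. Its groups did not overlap, and deficient array 3 was the lowest of all, unlike the beta chains above. The difference was -0.44 ± 0.20 (SE), a fold of 0.737 (unadjusted p 0.0517, adjusted p 0.35), and -0.80 for deficient array 3 alone. Without deficient array 3 it was -0.26 (adjusted p 0.276). Itgb7, its partner and a gut homing chain, read 6.85, 6.31 and 6.90 with the adequate diet and 6.34, 5.88 and 6.71 with the deficient diet. It was under the filter on 3 of the arrays, so no fold is given.

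Itgal, the alpha chain of LFA-1 on most leukocytes, read 9.32, 8.67 and 8.76 with the adequate diet and 8.93, 8.48 and 8.86 with the deficient diet, where the highest array was adequate array 1 and the lowest deficient array 2. Itgb2, the beta chain of the leukocyte family, read 8.39, 8.07 and 8.16 with the adequate diet and 8.01, 7.91 and 8.20 with the deficient diet. Both overlapped between the groups, with differences of -0.16 ± 0.22 (SE) and -0.17 ± 0.20 (SE). The myeloid alpha chains Itgam, Itgax and Itgad, which pair with Itgb2, were not tested. Itgam read 3.95 to 6.12, Itgax 4.67 to 5.52 and Itgad 5.64 to 6.82 over the 6 arrays.

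Leukocyte markers were lower beside them, in 14 of 15 tested genes, with a median log2 difference of -0.47 and 0 past the adjusted threshold. Their summed signal was 15998 to 21461 on the adequate arrays and 12915, 14337 and 18006 on deficient arrays 1, 2 and 3. Tyrobp, an adaptor of myeloid receptors, read 10.76, 10.20 and 10.65 with the adequate and 8.96, 8.78 and 10.53 with the deficient diet. On deficient array 3 the list lay within the adequate range, while Itgae was lowest there. Of the markers, Cd79b of B cells was under the filter. How far leukocyte number bears on the leukocyte integrins was not tested.

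The 3 non-chain members divided. Itgb1bp1, which binds the tail of the Itgb1 protein, read 10.69, 10.65 and 10.63 with the adequate diet and 9.84, 10.03 and 10.71 with the deficient diet, low on deficient arrays 1 and 2 alone, a difference of -0.46 ± 0.21 (SE) (adjusted p 0.356). Its dimmer probe set had the opposite sign, 0.27 ± 0.20 (SE). Itgb1bp2, the muscle protein melusin, read 8.37, 7.81 and 8.72 with the adequate diet and 7.69, 7.33 and 8.34 with the deficient diet, a difference of -0.52 ± 0.31 (SE). Itgb3bp, a centromere protein, read 10.97, 10.77 and 10.91 with the adequate diet and 11.49, 11.25 and 10.79 with the deficient diet, a difference of 0.29 ± 0.19 (SE). Its other probe set had 0.57 ± 0.29 (SE), and both were highest on deficient arrays 1 and 2.

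Across the family, 8 member genes had more than 1 tested probe set, which gave 9 pairs of a brightest and a dimmer probe set. In 5 of the 9 pairs the diet differences had opposite signs: Itgav, Itgb1, Itgb1bp1, Lama4 and Lamc1. For Lamc1 the gap between the probe sets, in log2, was 3.50, 3.83 and 3.46 with the adequate and 4.60, 4.99 and 3.53 with the deficient diet. For Itgb1 it was 0.89, 1.12 and 0.80 against 1.72, 1.91 and 0.75. The gap on deficient arrays 1 and 2 lay outside the adequate range on the same side in 6 of the 9 pairs. For Itgb5 this held by little, at 1.66 on deficient array 2 against 1.64 on adequate array 2. The Itgav pairs share their brightest probe set. Neither count of pairs was made over all genes with several probe sets, so neither can be read as particular to the members. A gap within an array is not moved by the scaling of that array, so in those pairs the probe sets of 1 gene stood in another ratio on deficient arrays 1 and 2. The same arrays had the high beta-actin 3′ over 5′ ratios given above, and the part of that ratio in the gaps was not tested.

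**Figure D3:**
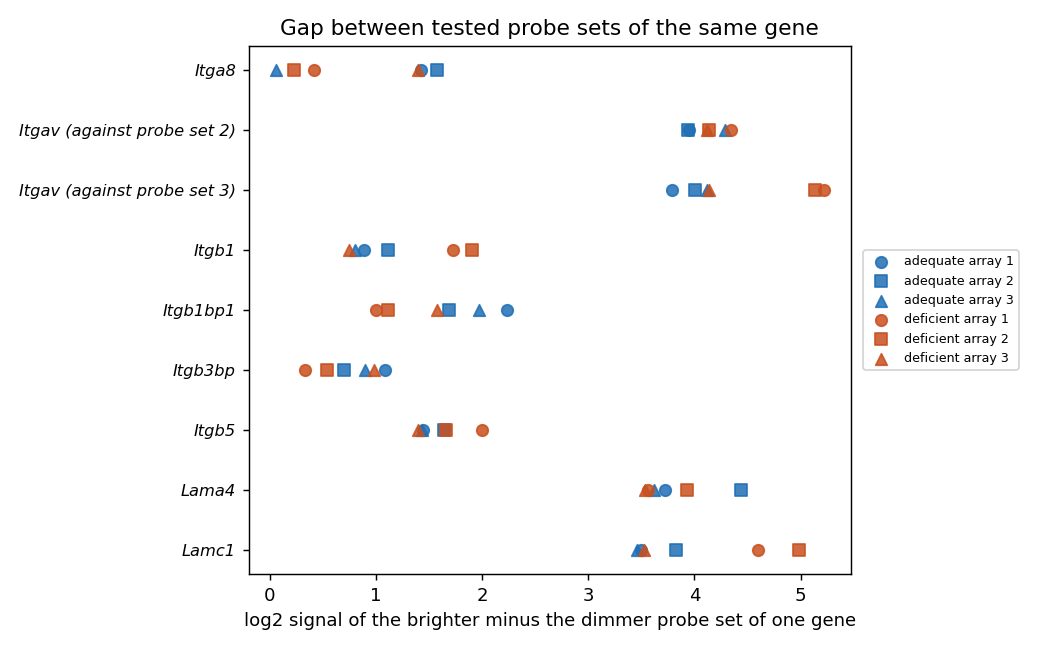
Each row is a pair of tested probe sets of 1 member gene, and each point is the log2 signal of the brightest minus that of the dimmer probe set on 1 array (blue for adequate, orange for deficient). For Lamc1, Itgb1 and the Itgav pair with probe set 3, the orange circle and square lie right of the adequate arrays, and the orange triangle of deficient array 3 lies next to them.

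Of the 13 untested member probe sets, 9 belonged to genes with a brighter tested probe set (Itga6, Itga7, Itga9, Itgb5 and Lama5) and 4 were the sole probe sets of Itgad, Itgam, Itgax and Itgb6. Their values ranged from 0.91 to 7.05.

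Genes of the adhesion complex, which couple integrin tails to actin, were 8 higher and 15 lower among 23 tested, with a median of -0.12 and 0 past the adjusted threshold. Zyx, the zyxin of stress fibres, had a log2 difference of -0.58 ± 0.23 (SE), and Fermt3, the blood cell kindlin that activates integrins, -0.83 ± 0.35. Zyx read 11.25, 11.15 and 11.66 with the adequate and 10.47, 10.59 and 11.26 with the deficient diet, below every adequate array on deficient arrays 1 and 2 alone. Vcl, the vinculin that reinforces adhesions, had 0.47 ± 0.19, and Actn1, an actin crosslinker, 0.56 ± 0.22. Actn1 read 12.86, 12.95 and 12.94 with the adequate and 13.71, 13.75 and 12.95 with the deficient diet, clearly above on deficient arrays 1 and 2 alone.

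Ligands and basement membrane partners were 6 higher and 11 lower among 17 tested, with a median of -0.09 and 0 past the adjusted threshold. Nid1, the nidogen that links laminin to collagen IV, read 12.73, 13.01 and 12.80 with the adequate and 14.50, 14.36 and 12.86 with the deficient diet, a difference of 1.06 ± 0.36 (SE). It was high on the deficient arrays on which Lamb1 was high. Col4a2, a chain of the collagen IV network, read 11.55, 11.67 and 11.42 against 10.51, 10.96 and 11.22, a difference of -0.66 ± 0.19 without overlap. Icam2, a ligand of LFA-1 on endothelium, had -0.63 ± 0.20, and Fbln1, a fibulin, -0.34 ± 0.17. Fn1, the fibronectin gene, had 0.42 ± 0.22. Fibroblast markers were higher in 6 of 6 tested genes (4 of 6 after quantile normalization), with summed signals of 147258 and 146935 on deficient arrays 1 and 2, 70778 on deficient array 3 and 67056 to 79763 on the adequate arrays. Their part in the laminin values was not tested.

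Other laminin receptors were 3 higher and 5 lower among 8 tested, with a median of -0.08 and 0 past the adjusted threshold. Sgcb, a sarcoglycan of the dystroglycan complex, had 0.34 ± 0.15 (SE). Sdc1 and Sdc4, syndecans that bind laminin through heparan sulfate, had -0.31 ± 0.18 and -0.28 ± 0.22. Rpsa, a ribosomal protein also known as the laminin receptor precursor, had 0.22 ± 0.18. Dag1, dystroglycan itself, had -0.15 ± 0.15.

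**Figure D4:**
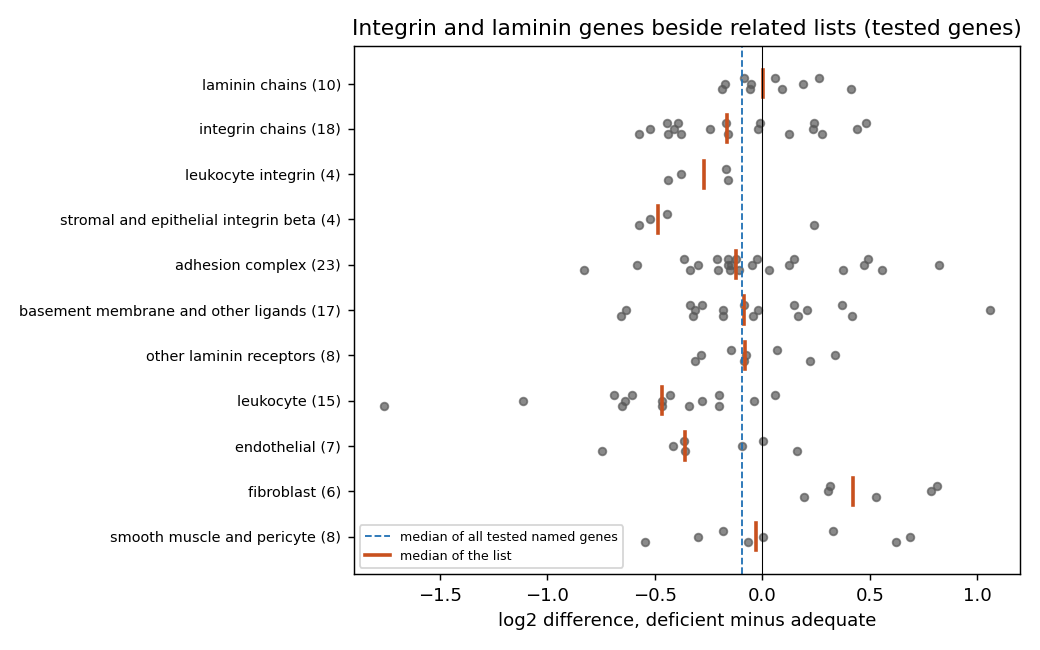
Log2 difference (deficient minus adequate) of each tested gene, 1 point per gene, in the member groups and in related lists, with the list's median in orange, the median of all tested named genes dashed in blue, and the number of tested genes in brackets. The laminin chains centre on 0.00, the integrin chains on -0.16 and the fibroblast markers on 0.42 (-0.05, -0.10 and 0.03 after quantile normalization).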

How the data were processed

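Biotin-labelled total RNA was hybridised to 6 Affymetrix rat expression arrays, 3 for each maternal diet. The authors deposited linear signal intensities made with MAS5 in Affymetrix Expression Console, per the submitters' processing notes (version not given in the sources used here). MAS5 gives 1 scaled signal per probe set, and the 2% trimmed mean was 500.1 or 500.2 on each array. Detection calls were not used here. Columns were compared for copies (0 identical pairs).

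The 57 control probe sets were removed and the other 31042 signals were put on a log2 scale with no offset. The filter kept the 18625 probe sets whose mean log2 signal reached the 40th percentile, 6.46 (a signal of 88.2). By the platform annotation, 20826 probe sets had 1 gene symbol, 436 had several and 9780 had none. All 53 member probe sets matched a GRCr8 gene by Entrez identifier, with 0 symbols changed. The 2 diets were compared with limma 3.58.1 under R 4.3.3, using lmFit and a trended eBayes, with two-sided p-values adjusted by Benjamini-Hochberg across all tested probe sets (threshold 0.05). A gene was represented by its brightest tested probe set. In a simulation of the diet comparison, 200 of the 18625 probe sets were changed, some by a log2 of 1 and the rest by 2. Of those changed by 1, 40% were recovered, and of those changed by 2, 84%. There were 7 false calls, and 0 false calls with no change simulated. The noise was drawn independently for each probe set, without the split of deficient arrays 1 and 2 from the rest. These rates therefore need not hold for the real arrays.

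The members and gene lists were chosen with earlier results of these data known. Described in full were up to 8 tested member genes in each direction with the smallest unadjusted p. In each related list up to 4 genes were named by the smallest unadjusted p, and further genes named there (Fn1 and Dag1), as well as Tyrobp and Pf4, were chosen after their values were seen. The alternatives tried were normalization by quantiles or by the median, filters at none and at the 60th percentile, a signal offset of 50, an untrended eBayes, array weights, a replicate block, leaving out each array or deficient arrays 1 and 2 together, hybridisation controls as a covariate, and averaging the probe sets of a gene. The labels do not name same-numbered arrays as pairs, so the main fit did not treat them as such. Their deviations correlated at 0.11, 0.15 and 0.0066, which with 3 arrays a diet cannot show that pairing is absent. Figures were drawn with matplotlib 3.10.9.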

Additional observations from a re-analysis of the deposited data

How the results depend on the processing

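No member probe set passed under the alternatives run, except with array weights (11 of 40) and without deficient array 3 (12 of 40). Over all probe sets the count was 3462 with array weights and ranged from 0 to 3614 when 1 array was left out, and for the members that range was 0 to 12. The fit with the replicate block called 0 probe sets over all and 0 members, the same counts as without it. The median over member genes moved by less than the spread between arrays in every alternative, from -0.12 without deficient array 3 to 0.034 without deficient arrays 1 and 2. Some members outside the 16 genes described in full changed sign without deficient arrays 1 and 2. Among them were Lama3 (0.57), Itga9 (0.41), Lamb2 (0.21) and Itga7 (0.18). Within the 16, the log2 difference without deficient arrays 1 and 2 changed sign for Itga5 (0.066), Itgav (-0.12), Itgb1 (-0.010), Itgb1bp1 (0.055), Itgb1bp2 (0.039) and Itgb3bp (-0.096). With the hybridisation controls as a covariate it did so for Itga5 (0.0076), Itgav (-0.097), Itgb1 (-0.051), Itgb1bp1 (0.0061), Itgb1bp2 (0.043), Itgb3bp (-0.031) and Lamc1 (-0.011). Quantile normalization gave Itgb1 -0.087, and averaging over probe sets gave Itgb1 -0.019 and Lamc1 -0.20. The cause was not tested. The other 9 of the 16 genes described in full kept their direction in every alternative run for them. Dim signals and the number of arrays limit what could be called.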
